A study of Mus musculus with 14 samples.

Results

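The genes described here are 27 mouse genes of cholesterol and fatty acid synthesis, chosen by name as a pathway list, out of 18193 genes that the array probe sets name. They comprise 17 enzymes of the sterol branch, 6 enzymes of the fatty acid branch, and 4 regulators or carriers (Srebf1, Srebf2, Insig1 and Stard4). All 27 passed the filter on variability and were among the 11812 genes tested. Expression was measured on 14 arrays of SCp2 cells, a mouse mammary epithelial line, each array holding RNA from 1 dish. Cells given matrix metalloproteinase 3 (MMP3), an enzyme released by cells that degrades matrix around them, were compared with control cells. In experiment A, MMP3 and control cells were plated at 50K, 100K and 250K. In experiment B they were plated at 25K, 50K, 100K and 250K. All dishes were 35 mm wide, all cells were in DMEM with 2% fetal calf serum, and the labels give 3 days of treatment for both agents. SCp2 is a single cultured line, and each combination of agent, density and experiment was 1 dish, so p-values measure the spread between dishes of these experiments.

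Cholesterol is built from acetyl-CoA through mevalonate, isoprenoid diphosphates, squalene and lanosterol, and the last enzymes of the branch turn lanosterol into cholesterol. Fatty acid synthesis starts from the same acetyl-CoA. Most of these genes are known targets of the sterol regulatory element binding proteins, which Srebf1 and Srebf2 encode: when sterols are low these factors are cut, enter the nucleus and raise transcription, and Insig proteins hold them back when sterols are high. In mammary epithelium the fatty acid enzymes are also known for their part in making milk fat.

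Promoters were read because these genes share known regulators. RefSeq promoters (GRCm38.p6) were matched for 21 of the 27 genes, with 26 starts. Fdps, Fdft1, Sqle, Scd1, Scd2 and Stard4 had no entry in the table. In the 250 bases before the start, and on both strands, the sterol regulatory element form TCACNCCAC was found in 1 of the 26 promoters, that of Hmgcs1, against 1.05% of 32851 promoters. The stricter form TCACCCCAC, which is contained in it, was found in the same promoter and in 0.496% of all promoters. CCAAT, the box bound by NF-Y, was found in 19 of 26 promoters and 33.8% of all. CACGTG, an E-box, was found in 4 of 26 and 6.02% of all. A match is only a run of letters. Hmgcs1 is printed as the 1 promoter with a match to TCACNCCAC. Other forms of the element, and bases further upstream, were not searched. Mvd and Dhcr7, which changed in opposite directions in experiment A, were chosen for printing after their values were seen. Capitals mark TCACNCCAC and CCAAT, the second read as ATTGG where it lies on the other strand.
Hmgcs1 (chr13:119690101-119690350, plus strand): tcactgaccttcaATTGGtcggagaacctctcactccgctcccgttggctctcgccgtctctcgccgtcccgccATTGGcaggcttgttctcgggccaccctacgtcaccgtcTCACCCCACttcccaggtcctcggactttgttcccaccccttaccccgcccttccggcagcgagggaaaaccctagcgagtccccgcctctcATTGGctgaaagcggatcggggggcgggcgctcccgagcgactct
Mvd (chr8:122443423-122443672, minus strand): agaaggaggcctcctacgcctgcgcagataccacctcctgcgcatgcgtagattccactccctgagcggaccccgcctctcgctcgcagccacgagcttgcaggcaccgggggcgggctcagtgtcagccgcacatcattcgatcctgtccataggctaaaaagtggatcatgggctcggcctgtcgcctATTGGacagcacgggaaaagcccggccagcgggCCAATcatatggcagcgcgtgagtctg
Dhcr7 (chr7:143822917-143823166, plus strand): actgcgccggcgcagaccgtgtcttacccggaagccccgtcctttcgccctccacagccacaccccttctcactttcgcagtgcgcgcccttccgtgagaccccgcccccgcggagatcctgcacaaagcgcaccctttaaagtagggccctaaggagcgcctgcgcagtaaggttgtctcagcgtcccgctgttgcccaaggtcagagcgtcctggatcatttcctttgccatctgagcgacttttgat
The Hmgcs1 match to TCACNCCAC lies at -137 to -129 from the start, among 3 CCAAT boxes. The Mvd promoter holds 2 CCAAT boxes. The Dhcr7 sequence is that of the first of 3 starts and holds no match; of its other starts, 1 holds 2 CCAAT boxes (-85 to -81 and -49 to -45) and 1 holds an E-box (-164 to -159).

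Values were taken as log2 expression on arrays. Every probe set has a 14-array median of 0, so they show differences between arrays and not levels. The interferon-induced gene Ifit1, which parts the agents completely in experiment A, lay between 2.832 and 4.208 on MMP3 arrays and between -2.977 and -2.907 on control arrays there. In experiment B, 4 arrays went against their labels by the sign of Ifit1: MMP3 25K, MMP3 100K, control 50K and control 250K. Their labels were kept, and fits that use experiment B are given with and without them. No matched pair of experiment B is left without them, so counts by pair have no such value. In experiment B the MMP3 and control dishes of each density had the same sign of Ifit1. In experiment A they had opposite signs at each density. One further feature concerned MMP3 100K of experiment B, whose SD over probe sets was 0.869, against 0.232 to 0.412 on the other 13 arrays, and whose actin 3′ minus 5′ difference was 0.654, against -0.339 to 0.192. In experiment A the 18S signal was 0.768 to 0.954 on MMP3 arrays and 0.542 to 0.688 on control arrays, and the Gapdh 3′ minus 5′ difference was 0.04 to 0.166 on MMP3 arrays and -0.027 to 0.03 on control arrays. The part of these differences in the results below was not tested.

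**Figure D1:**
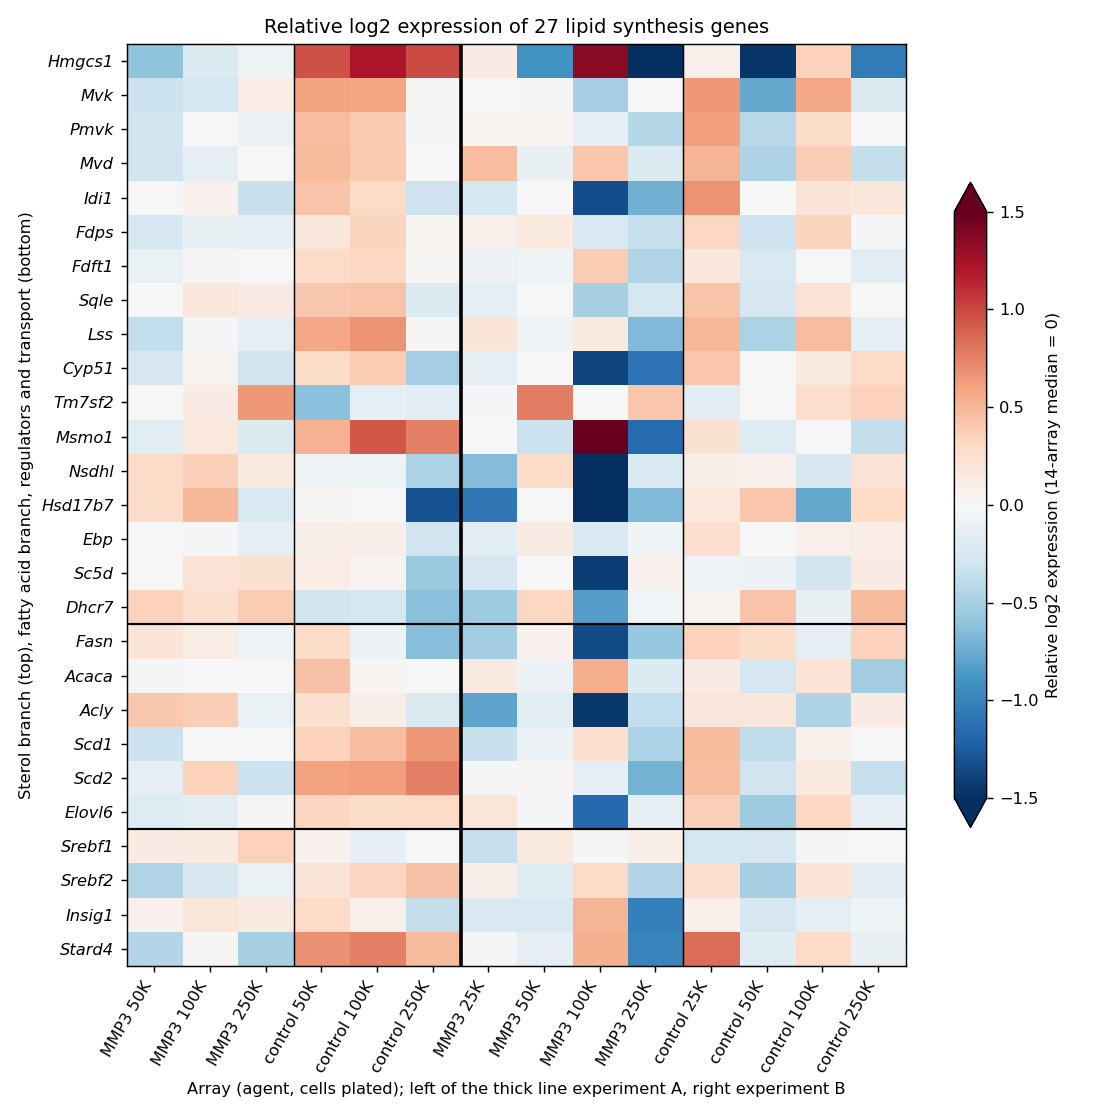
Relative log2 expression of the 27 genes (rows, in pathway order) on the 14 arrays (columns), with 0 the median of each gene over the arrays and colours saturating at the ends of the scale. Within experiment A most rows are bluer under MMP3 than under control, with Nsdhl and Dhcr7 among the exceptions, and in experiment B arrays of 1 agent differ among themselves.

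In experiment A, 7 of the 27 genes fell with MMP3 (Hmgcs1, Mvk, Mvd, Scd1, Elovl6, Srebf2 and Stard4) and 2 rose (Nsdhl and Dhcr7), by limma at an adjusted p under 0.05. This is 25.9% lower and 7.41% higher. Over all genes tested, 10.5% were called lower and 14.5% higher. The median change of the 27 genes was -0.23 on the log2 scale, against -0.02 over all genes tested. The fit had 2 residual degrees of freedom. When each of the 6 arrays was dropped in turn, 1 residual degree of freedom remained. None of the 27 genes was then called, and neither was any of the 11812 genes tested. Each of the 9 kept its sign in all 6 fits. With no variability filter 4 genes were called, 3 of them among the 9. With matched MMP3 and control dishes as a block, 4 of the 9 calls were lost: Mvk (limma adjusted p = 0.243), Mvd (0.219), Dhcr7 (0.0558) and Elovl6 (0.0533).

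Hmgcs1, the HMG-CoA synthase that opens the mevalonate pathway, changed most. It read -0.60, -0.20 and -0.08 on MMP3 arrays at 50K, 100K and 250K, against 0.95, 1.21 and 0.99 on control arrays. Every MMP3 array was below every control array. Hmgcs1 averaged -0.29 ± 0.27 with MMP3 and 1.05 ± 0.14 in controls (SD over densities, n = 3 each), which is 2.54-fold lower with MMP3 (log2 change -1.35, SE 0.12, limma adjusted p = 0.016).

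The next enzymes of the mevalonate pathway moved less. Mvk, mevalonate kinase, read -0.32, -0.26 and 0.11 with MMP3, against 0.61, 0.59 and 0.02 in controls. The Mvk groups overlapped at 250K, and the fitted change was -0.57 (SE 0.11, limma adjusted p = 0.0447). Mvd, the decarboxylase that makes isopentenyl diphosphate, read -0.29, -0.15 and 0.00 with MMP3, against 0.47, 0.40 and -0.00 in controls. Here too the difference lay at the lower densities, and the fitted change was -0.43 (SE 0.07, limma adjusted p = 0.0316). Pmvk, phosphomevalonate kinase, had a change of -0.41 and missed the threshold (limma adjusted p = 0.0667).

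None of the enzymes from Idi1 to Cyp51, which carry isopentenyl diphosphate through squalene to lanosterol and beyond, passed the test. Their changes were -0.23 for the isomerase Idi1, -0.34 for farnesyl diphosphate synthase Fdps, -0.23 for squalene synthase Fdft1, -0.12 for squalene epoxidase Sqle, -0.60 for lanosterol synthase Lss and -0.21 for lanosterol demethylase Cyp51. All 6 were negative, with limma adjusted p between 0.077 (Lss) and 0.542 (Sqle). On Fdps and Lss the MMP3 arrays lay below all control arrays.

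After lanosterol the signs were mixed. Dhcr7, the reductase of a last step to cholesterol, read 0.34, 0.24 and 0.38 with MMP3, against -0.28, -0.26 and -0.62 in controls. The groups did not overlap, and Dhcr7 averaged 0.32 ± 0.07 with MMP3 and -0.39 ± 0.20 in controls (SD, n = 3 each), a 1.64-fold rise (log2 change 0.71, SE 0.09, limma adjusted p = 0.0226). Nsdhl, the dehydrogenase that helps strip methyl groups from the sterol ring, read 0.29, 0.35 and 0.15 with MMP3, against -0.07, -0.08 and -0.47 in controls. Its groups did not overlap either, with a 1.38-fold rise (log2 change 0.47, SE 0.09, limma adjusted p = 0.0425). Of the others, the methylsterol oxidase Msmo1 had -0.81 (limma adjusted p = 0.0537), the sterol reductase Tm7sf2 0.57 (0.0562), the ketosteroid reductase Hsd17b7 0.61 (0.18), the sterol isomerase Ebp -0.03 (0.828) and the desaturase Sc5d 0.28 (0.15), and none passed. In the sterol branch as a whole 12 of 17 changes were negative (70.6%, against 54.2% of all genes). The 5 positive ones were Tm7sf2, Nsdhl, Hsd17b7, Sc5d and Dhcr7, all enzymes that act after lanosterol.

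**Figure D2:**
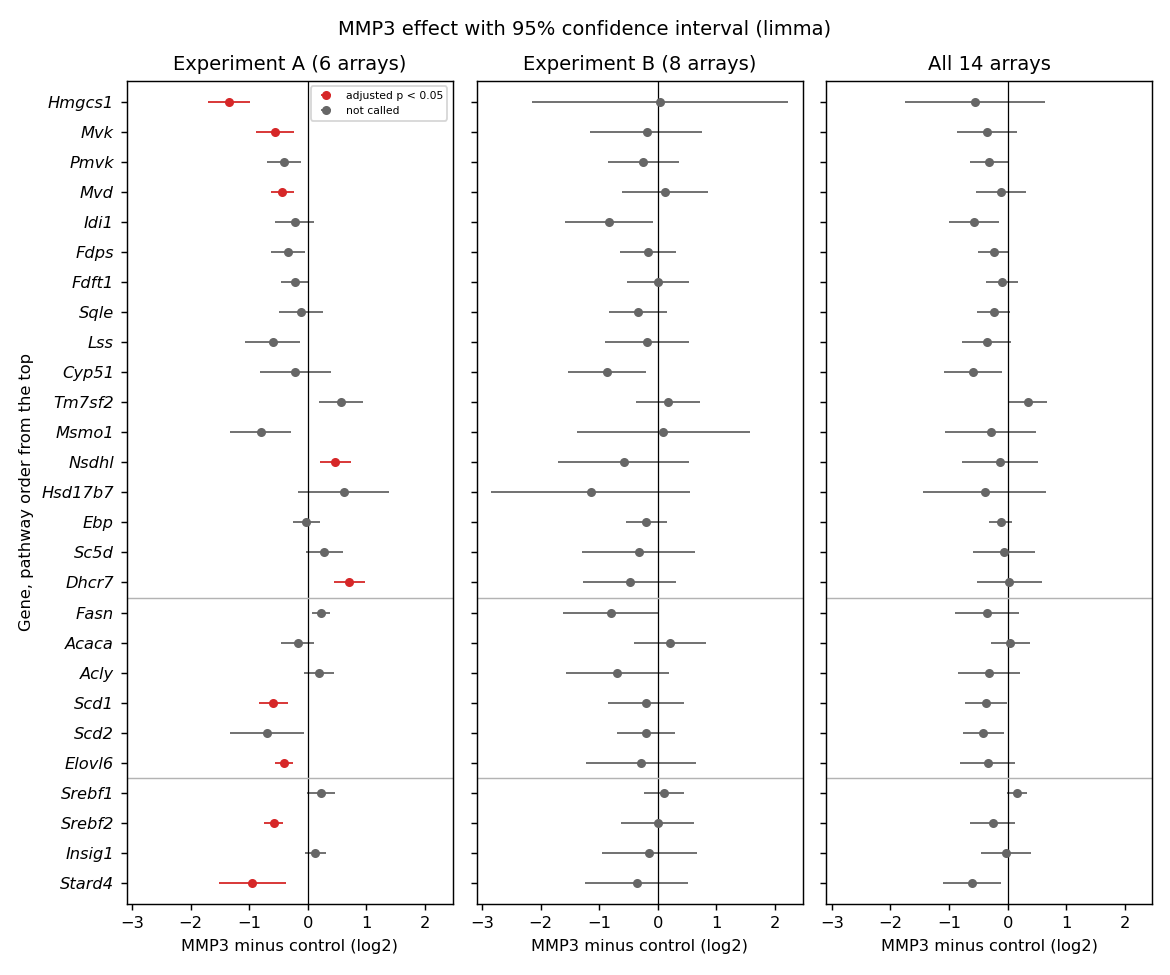
Fitted MMP3 minus control change (log2, horizontal axis) with its 95% confidence interval for each gene in experiment A, experiment B and all 14 arrays, on a shared axis, with red for limma adjusted p under 0.05. The 9 called genes are all in experiment A, and intervals in experiment B are wider, running from -2.14 to 2.22 for Hmgcs1.

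In the fatty acid branch 2 of 6 genes fell, both of them enzymes that modify finished fatty acids. Scd1, a desaturase that makes monounsaturated fatty acids, read -0.32, -0.00 and -0.01 with MMP3, against 0.34, 0.46 and 0.65 in controls. Elovl6, which lengthens fatty acids, read -0.19, -0.15 and 0.02 with MMP3, against 0.33, 0.27 and 0.30 in controls. Neither gene's groups overlapped on the probe set used. The changes were -0.59 for Scd1 (SE 0.08, limma adjusted p = 0.0262) and -0.41 for Elovl6 (SE 0.05, limma adjusted p = 0.0241). The related desaturase Scd2 had -0.71 and missed the threshold (limma adjusted p = 0.0995). The enzymes that build the chain were close to 0 or positive and did not pass: fatty acid synthase Fasn 0.23 (0.0557), acetyl-CoA carboxylase Acaca -0.17 (0.272) and ATP citrate lyase Acly 0.19 (0.195).

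Of the regulators and carriers, Srebf2 and Stard4 fell. Srebf2, whose product drives sterol genes, read -0.46, -0.24 and -0.10 with MMP3, against 0.19, 0.32 and 0.44 in controls. Stard4, a cytosolic cholesterol carrier, read -0.44, 0.02 and -0.50 with MMP3, against 0.68, 0.76 and 0.47 in controls. Groups were apart for both genes. Srebf2 changed by -0.59 (SE 0.05, limma adjusted p = 0.0166), and Stard4 was 1.93-fold lower (log2 change -0.94, SE 0.19, limma adjusted p = 0.0493). Srebf1, which favours fatty acid genes, had 0.22 (0.133) and Insig1 0.13 (0.219), and neither passed.

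Over the 27 genes, all MMP3 arrays of experiment A lay below all control arrays for 10 genes, against 23.3% of all genes, and above them for 4 genes, against 19.5%. MMP3 was lower than control at every density for 13 genes (48.1%, against 37.4% of all genes) and higher at every density for 6 (22.2%, against 28%).

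**Figure D3:**
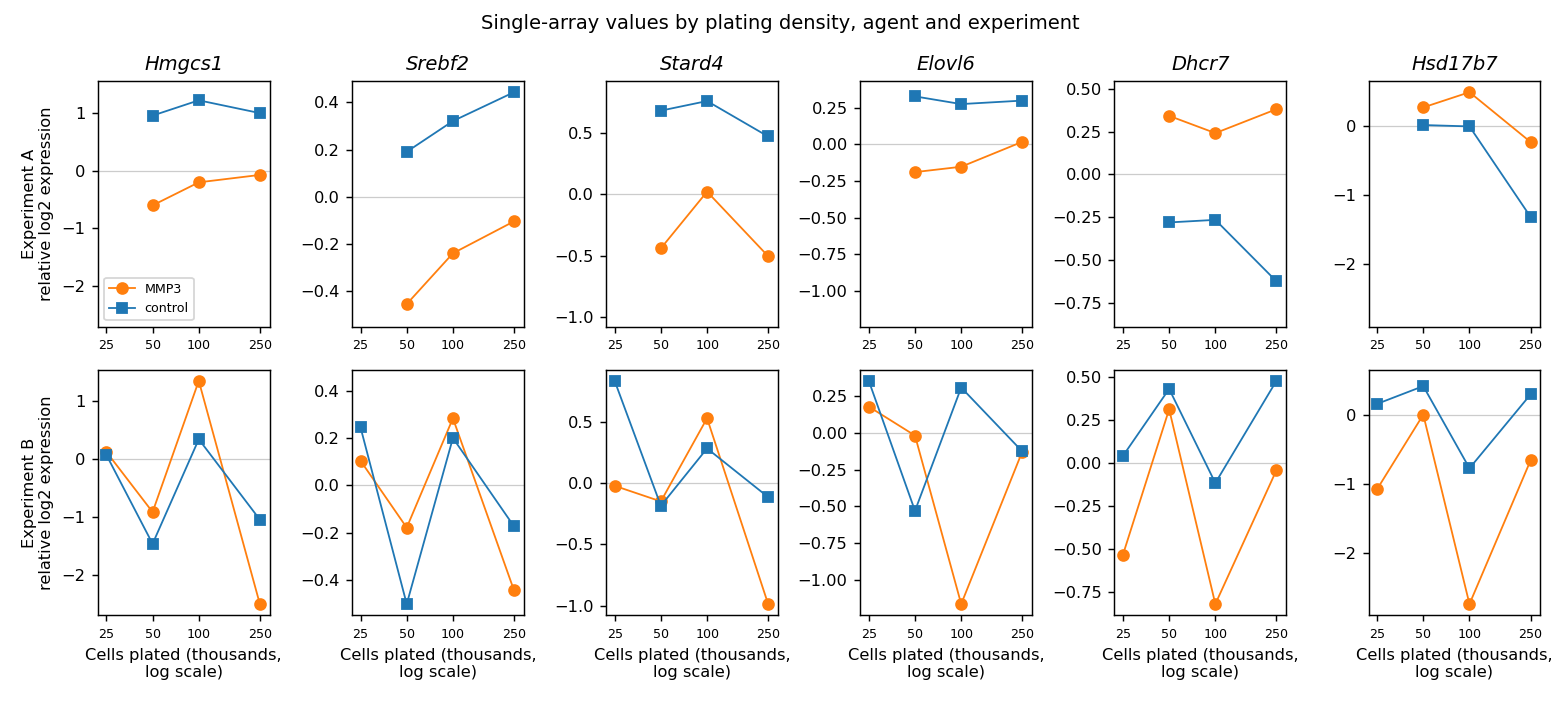
Single-array values (relative log2 expression) against cells plated (log scale) for 6 genes, with MMP3 as circles and control as squares, experiment A above and experiment B below. In experiment A the Hmgcs1, Srebf2, Stard4 and Elovl6 lines of MMP3 run below those of control and the Dhcr7 line above, whereas in experiment B the lines cross or swing between densities.

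A gene's value came from its most variable probe set, and 17 of the 27 genes had more than 1 past the filter. For 2 of these, Srebf2 and Acly, probe sets had opposite signs in experiment A. The other Srebf2 probe set changed by 0.13 (limma adjusted p = 0.369), so the fall of Srebf2 rests on 1 of its 2 probe sets. The Scd1 call also rests on 1 of 2. On the other Scd1 probe set the change was -0.18 (limma adjusted p = 0.113) and the groups overlapped. The 5 Acly probe sets ran from -0.32 to 0.46, and the highest, which is not the one used, was called (limma adjusted p = 0.0215). The 5 Hmgcs1 probe sets ran from -1.35 to -0.63, and all were called. For Scd2 and Msmo1 the probe set used had the largest change. The 3 Scd2 probe sets ran from -0.705 to -0.001, and the 2 of Msmo1 from -0.807 to -0.265. For Elovl6 the one used had the smallest, with 3 probe sets from -0.607 to -0.408.

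**Figure D4:**
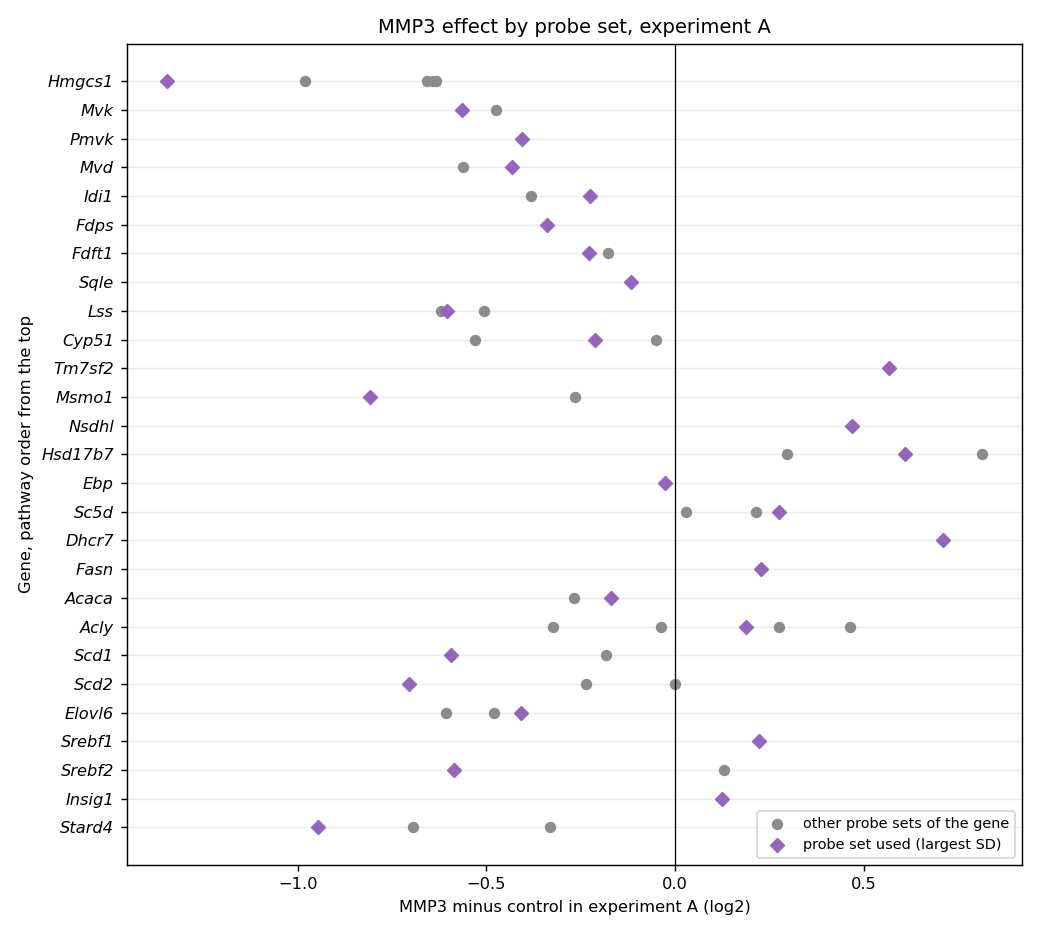
MMP3 minus control in experiment A (log2) for every probe set past the filter, by gene, with diamonds for the probe set used and circles for the others. Srebf2 and Acly have probe sets on both sides of 0, and all 5 Hmgcs1 probe sets lie below it.

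In experiment B none of the 27 genes passed the test, and neither did any of the 11812 genes (0%), by limma. At an unadjusted p under 0.05 there were 2 of the 27 genes and 1373 of all genes (11.6%). The median change was -0.20, against 0.01 over all genes, and 20 of 27 changes were negative (74.1%, against 48.4% of all genes). Hmgcs1 read 0.13, -0.91, 1.35 and -2.50 with MMP3 at 25K, 50K, 100K and 250K, against 0.08, -1.46, 0.35 and -1.04 in controls. The groups overlapped, and the change of 0.04 had a 95% interval from -2.14 to 2.22. Idi1 was the 1 gene with all MMP3 arrays below all control arrays, against 5.39% of genes, and no gene had them above, against 5.2%. Idi1 read -0.26, -0.01, -1.33 and -0.72 with MMP3, against 0.67, -0.01, 0.19 and 0.17 in controls (log2 change -0.84, SE 0.30, limma adjusted p = 0.392). The nearest arrays of the 2 agents read the same to 2 decimals on this probe set. On the other Idi1 probe set they were MMP3 50K at -0.05 and control 250K at 0.12, and it was not called either (limma adjusted p = 0.308). On the arrays that followed their labels, 2 for each agent, MMP3 lay below control for 18 of the 27 genes, against 36.5% of all genes. It lay above for 3, against 29.8%. Those arrays were picked by Ifit1. They set MMP3 50K and 250K against control 25K and 100K, so agent and density cannot be told apart in these counts.

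Of the other genes called in experiment A, Mvk changed by -0.19 in experiment B, Mvd by 0.13 and Nsdhl by -0.58. Scd1 changed by -0.21 (0.355 on its other probe set) and Elovl6 by -0.29, and none of these passed. Srebf2, Stard4 and Dhcr7, also called in experiment A, were spread within each agent in experiment B. Srebf2 read 0.10, -0.18, 0.28 and -0.45 with MMP3, against 0.25, -0.50, 0.20 and -0.17 in controls (log2 change -0.00). Stard4 read -0.02, -0.15, 0.53 and -0.99 with MMP3, against 0.83, -0.18, 0.28 and -0.11 in controls (log2 change -0.36). The ranges of both genes overlapped. Dhcr7 read -0.53, 0.31, -0.82 and -0.04 with MMP3, against 0.04, 0.43, -0.12 and 0.48 in controls (log2 change -0.48), so MMP3 was lower at each density, where in experiment A it was higher at each. These pairs of experiment B were alike in the sign of Ifit1, and those of experiment A were not. Cyp51 and Fasn had not been called in experiment A. Cyp51 read -0.15, 0.01, -1.37 and -1.11 with MMP3, against 0.42, -0.01, 0.14 and 0.30 in controls (log2 change -0.87, SE 0.27, limma adjusted p = 0.348). Fasn read -0.52, 0.07, -1.34 and -0.57 with MMP3, against 0.35, 0.27, -0.13 and 0.34 in controls (log2 change -0.80, SE 0.33, limma adjusted p = 0.441). Low values on MMP3 100K and 250K carried much of the Cyp51 difference. Each of these 2 arrays was the lowest of the 14 for 10 of the 27 genes (37%), against 28.3% of all genes for MMP3 100K and 9.52% for MMP3 250K. Control 25K was the highest for 9 of the 27 (33.3%), against 5.17% of all genes.

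Of the 27 genes, 4 (Hmgcs1, Lss, Acaca and Srebf2) had the opposite sign to Ifit1 on every array, which is 14.8% against 9.17% of all genes tested, and none had its sign on every array, against 9.82%. The opposite sign on every array did not hold for the other probe set of Srebf2 or that of Acaca. The other Srebf2 probe set read 0.40 on MMP3 50K of experiment A, and the other Acaca probe set -0.38 on MMP3 100K of experiment B. On the probe sets used, Hmgcs1 and Srebf2 were below 0 on the same 7 arrays on which Ifit1 was above 0. These arrays include the 2 control arrays of experiment B that went against their labels. Hmgcs1 read -1.46 and -1.04 on those 2 control arrays, and 0.13 and 1.35 on the 2 MMP3 arrays that went against theirs.

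**Figure D5:**
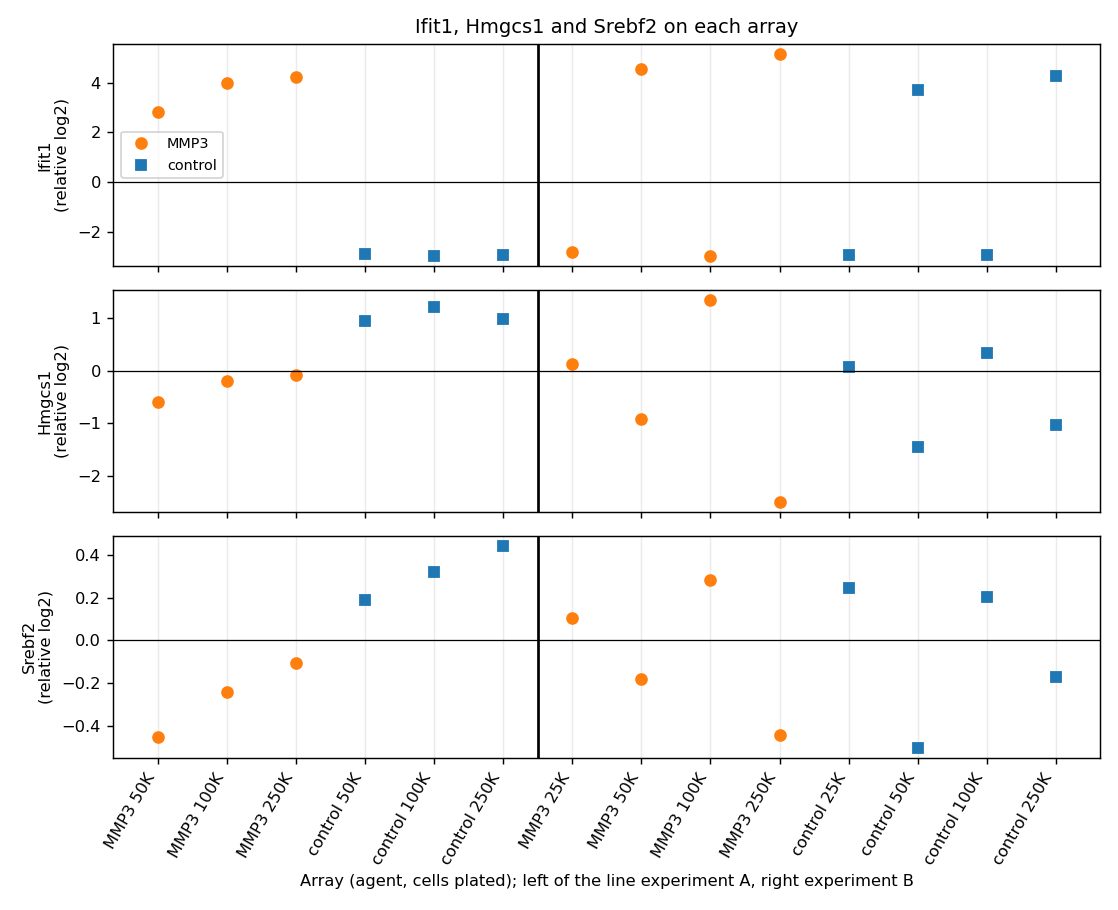
Relative log2 values of Ifit1, Hmgcs1 and Srebf2 (panels from the top) on each of the 14 arrays, with orange circles for MMP3 and blue squares for control. The 7 arrays with Ifit1 above 0 are the 7 with Hmgcs1 and Srebf2 below 0, and in experiment B they include 2 control arrays. The other Srebf2 probe set, which is not shown, did not follow this pattern.

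In the joint fit of both experiments (14 arrays, experiment as a block) none of the 27 genes passed, whereas 1.34% of all genes were called higher and 1.41% lower by limma. At an unadjusted p under 0.05 there were 6 of the 27 (22.2%) and 2059 of all genes (17.4%). Changes were negative for 23 of 27 genes, against 47.5% of all genes, and the median was -0.29, against 0.01. The lowest adjusted p was that of Idi1 (log2 change -0.58, SE 0.20, limma adjusted p = 0.152). The other Idi1 probe set had -0.66 in a fit over probe sets (limma adjusted p = 0.0481). Stard4 changed by -0.61 (SE 0.23, limma adjusted p = 0.184) and Hmgcs1 by -0.56 (SE 0.54, limma adjusted p = 0.703).

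Without the 4 arrays that went against their labels, 10 arrays were left, 6 of them from experiment A, and 18 of the 27 genes were called: 13 lower and 5 higher. The lower ones were Hmgcs1, Mvk, Pmvk, Mvd, Idi1, Fdps, Lss, Msmo1, Scd1, Scd2, Elovl6, Srebf2 and Stard4, and the higher ones Tm7sf2, Nsdhl, Hsd17b7, Dhcr7 and Srebf1. Over all genes 17.2% were then lower and 21.8% higher. The 4 arrays were picked by a gene that moves with MMP3 in experiment A, so these calls are no independent support. Hmgcs1 then changed by -1.496 (limma adjusted p = 0.00859), Stard4 by -0.93 (0.00405) and Elovl6 by -0.41 (0.00196). In all 6 genes turned sign. Of these, Nsdhl and Hsd17b7 were then called, at 0.40 (limma adjusted p = 0.00759) and 0.52 (0.0363), against -0.13 and -0.39 over all 14 arrays. The other 4 were not called: Sc5d had 0.25 without the 4 arrays and -0.07 with them, Fasn 0.11 and -0.36, Acly 0.15 and -0.32, and Acaca -0.21 and 0.04. In experiment B alone without these arrays, control 25K and 100K were set against MMP3 50K and 250K, so the agents differed in density. The product of agent and density was left out of this fit, and 1 residual degree of freedom remained. None was called, with 6 of the 27 and 2365 of all genes at an unadjusted p under 0.05, and Hmgcs1 had -1.53 (limma adjusted p = 0.295).

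Plating density moved none of the 27 genes past the threshold over all arrays, in experiment A or in experiment B, and no gene of the 11812 passed in any of these fits (0%). At an unadjusted p under 0.05 limma gave 2 (7.41%), 8 (29.6%) and 0 (0%) of the 27 genes in those fits, against 1358 (11.5%), 3506 (29.7%) and 470 (3.98%) of all genes. Slopes per doubling of cells were negative for 23 of 27 genes over all arrays (85.2%, against 49.3% of all genes), with a median of -0.08, against 0.00 over all genes. Fasn read 0.19, 0.11 and -0.07 at 50K, 100K and 250K with MMP3 in experiment A, and 0.28, -0.09 and -0.63 in controls (slope -0.25, limma adjusted p = 0.105). Without the 4 arrays, 6 genes fell with density, against 11.7% of all genes: Idi1 (-0.28), Nsdhl (-0.17), Hsd17b7 (-0.40), Ebp (-0.11), Fasn (-0.28) and Acly (-0.20). In experiment B alone without them none was called, with 8 of the 27 and 1369 of all genes at an unadjusted p under 0.05. That fit had no product term and 1 residual degree of freedom.

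The MMP3 effect did not pass a test of change with density for any of the 27 genes or any other gene (0%), with 0 and 228 at an unadjusted p under 0.05 by limma. The difference of the MMP3 effect between experiments, B minus A on the 12 arrays at shared densities, also gave no call (0%), with 3 of the 27 genes (11.1%) and 2147 of all genes (18.2%) at an unadjusted p under 0.05. The difference was -1.16 for Dhcr7 (SE 0.34, limma adjusted p = 0.239), 0.63 for Srebf2 (0.271) and 1.38 for Hmgcs1 (SE 0.96, 0.431). Without the 4 arrays the change with density called no gene, with 3 of the 27 and 1232 of all genes at an unadjusted p under 0.05. The difference between experiments never used MMP3 25K. Without the rest of the 4, control 100K was its only control dish of experiment B. The difference was then -0.42 for Dhcr7, 0.09 for Srebf2 and -0.52 for Hmgcs1, which turned sign. These values rest on that single control dish.

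Other genes of sterol supply and transport were read in experiment A from a separate list. Of 17 tested, 3 rose (17.6%, against 14.5% of all genes) and 0 were called lower (against 10.5%), with a median change of 0.19: Stard3, an endosomal cholesterol carrier (0.94), Mbtps1, the protease that makes the first cut in the sterol regulatory factors (0.92), and Npc2, a lysosomal cholesterol carrier (0.47). Npc2 was also called over all arrays (0.55, limma adjusted p = 0.0286). One of the Npc2 probe sets changed by -0.06 in experiment A, and other Mbtps1 probe sets by 0.44 and 0.10. Of 24 further fatty acid and glycerolipid genes, 3 rose (12.5%, against 14.5% of all genes) and 5 fell (20.8%, against 10.5%), with a median of 0.12. The largest changes were in the elongase Elovl7 (2.46), the desaturase family member Fads3 (2.13), the acyltransferase Agpat2 (0.84) and the acetyl-CoA synthetase Acss2 (-0.82). Beside these groups, the luminal markers Epcam (1.18) and Cdh1 (0.89) rose, whereas the other 3 of 5 (Krt8, Krt18 and Krt19) did not pass the variability filter. The basal markers Krt5 (-1.04) and Trp63 (-1.45) fell, and the third, Krt14, had -0.38 (limma adjusted p = 0.336). None of the 1 adipocyte, 2 fibroblast and 3 macrophage markers tested passed. Whether the mix of epithelial cells has a part in the lipid gene changes was not tested, and in bulk RNA fewer cells of a type and less RNA per cell cannot be told apart.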

How the data were processed

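RNA from 14 dishes was hybridised to Affymetrix arrays, with 200 ng of total RNA each, per the labels' protocols. The authors deposited 1 table of log2 values made with RMA, per the submitters' processing notes. The log base and the centring of each probe set on its median are not stated and were read from the values. Of 45037 probe sets that are not controls, 34945 had 1 gene symbol, 932 several and 9160 none. For 34741 the symbol was taken from RefSeq by gene identifier, whether or not it differed. The most variable probe set stood for each of 18193 genes. Genes with an SD under 0.049 (the 40th percentile of the 45037 probe sets) were left out. Changes were fitted in limma 3.58.1 (R 4.3.3) with agent, log2 density, their product and, across experiments, an experiment block, with Benjamini-Hochberg adjustment over 11812 genes. The product was left out for experiment B alone without the arrays that went against their labels. The fits were first tested on simulated data. All 27 genes are named; of further genes, those past the threshold, at most 4 for each list and comparison by size. Members and lists were chosen with earlier results of these data known. Groups come from the sample titles. Same-label dishes of the experiments correlated between -0.605 and 0.695 over genes. The number of arrays limits precision.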

Additional observations from a re-analysis of the deposited data

Results flagged for a closer look

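Among 60 groups of 4 arrays examined in experiment B, 3 had 1 array far from the others, where chance gives about 1 in 20. Mvk read -0.51 on MMP3 100K, Fasn -0.13 on control 100K and Acly -0.47 on control 100K. The arrays of a group differ in density.

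For 4 genes, MMP3 minus control had opposite signs in every pair of experiment A and every pair of experiment B. How many of all genes did so was not counted, and the pairs of experiment B were alike in the sign of Ifit1. Acaca differences were as small as -0.014 in experiment A and 0.015 in experiment B. The other Acaca probe set was negative in both experiments (-0.27 and -0.16). An Acly probe set was too (-0.32 and -0.18), while other Acly probe sets changed sign. The difference of the effects, B minus A, was -1.72 for Hsd17b7, -1.16 for Dhcr7, 0.44 for Acaca and -0.79 for Acly, and limma called none of them. Without the 4 arrays that went against their labels no pair is left, and control 100K is the only control dish of experiment B in this fit. The difference, which rests on that dish, was then 0.39 for Hsd17b7, -0.42 for Dhcr7, -0.28 for Acaca and 0.16 for Acly.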

How the results depend on the processing

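Of 8 results, 7 had a count of 0, and 110 of their 114 alternatives also gave 0, which says little about stability in fits this small. For the 1 result with calls, 5 of 12 alternatives gave a count within 1.5 times. For MMP3 in experiment A the 9 calls became 4 with no variability filter, where all genes called numbered 1271 against 2960 and 18193 genes were tested. Leaving out each array in turn gave 0 calls among the 27 genes and 0 among all 11812, with 1 residual degree of freedom. With a replicate block of matched MMP3 and control dishes there were 6 calls and 1908 genes called, and 5 of the 9 remained; the shared density, and no shared number, forms these pairs. All 9 kept their sign under these settings, and 7 remained called with quantile normalization, with no product term, and with density centred on all 14 arrays, an alternative chosen after seeing the data. Over all arrays, leaving out each array gave 0 to 2 calls: 1 without control 50K of experiment B and 2 without MMP3 100K of experiment B, with 682 and 1287 genes called against 325. With no replicate block, and with the block of matched dishes, there were 0 calls among the 27. Over all genes these 2 fits called 0 and 2. Without the 4 arrays that went against their labels there were 18 calls for MMP3 and 6 for density, and 6 of 27 genes turned sign, of which Nsdhl (0.399) and Hsd17b7 (0.519) were called. The cause was not tested. Signal over background is not known, so genes near background could not be identified.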
